A study of Drosophila melanogaster with 2 samples.

Results

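Peaks of the nuclear protein gfzf, mapped by sequencing of immunoprecipitated chromatin (ChIP-seq), were examined at 10 genes of the Drosophila melanogaster sex determination pathway. These were Sxl, sisA, her, fl(2)d, vir, tra, tra2, dsx, fru and ix. The genes were chosen from signals in these same peak lists, around the strong peak at Sxl, and all 10 were found among 13968 protein-coding genes of the annotation. Their summits are therefore described without a test. The material was whole embryos aged 0 to 24 h from a transgenic line that stably carried gfzf with GFP at its C-terminus, precipitated with an antibody against GFP and sonicated to fragments of 200 to 800 bp. Males and females were pooled, so binding in males cannot be told apart from binding in females. The age window takes in the times at which both the early and the late Sxl starts are used. The labels do not give the share of the material in which each start was in use, which may differ. The data form 1 group of 2 biological replicates with 1 control entry for both, and the labels leave unsaid whether each replicate was its own embryo collection. A wild-type or untagged group was not analysed here.

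Sex in the fly is set by the number of X chromosomes. X-linked signal element proteins such as sisA switch on an early promoter of Sxl in embryos with a double X dose, and the Sxl protein made there then directs productive splicing of the transcripts that a later-acting promoter gives in both sexes. Sxl protein also directs female splicing of tra, and the tra protein acts with tra2 on the transcripts of dsx and fru, whose sex-specific proteins control bodily and behavioural differences between the sexes. The gfzf protein itself, which joins a glutathione S-transferase domain to zinc fingers of the FLYWCH type, is known as a co-activator that acts with the factor M1BP at promoters holding a core promoter element called Motif 1.

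The upstream sequences of 6 starts are shown, so that starts with and without an optimal summit can be read beside each other. The late Sxl start, tra and her had such a summit, and the early Sxl start, sisA and dsx (most upstream start) had none. The late Sxl start and tra held a Motif 1 core, and the early Sxl start and sisA held the Zelda motif CAGGTAG. Neither motif was found in exact form at her or dsx. Only exact letters were searched, so near matches were not counted. These 6 starts are a selection, so no link between motifs and summits is read from them. Among the genes not shown, fl(2)d, ix and tra2 had an optimal summit without an exact Motif 1 core. The genes vir and fru, also not shown, had neither an optimal summit nor an exact Zelda match. The 6 sequences were read from the RefSeq Release 6 (dm6) genome in the direction of transcription, and each ends at the base before the start. The stretches are chrX:7098054-7098253 on the minus strand (late Sxl start), chrX:7092884-7093083 on the minus strand (early Sxl start), chrX:11322358-11322557 on the minus strand (sisA), chr3L:16591051-16591206 on the minus strand (tra, which stops at the exon of the next gene), chr2L:16676985-16677184 on the plus strand (her) and chr3R:7967409-7967608 on the minus strand (dsx). Capitals mark the Motif 1 core GGTCACAC in the late Sxl and tra stretches, the Zelda motif CAGGTAG in the early Sxl and sisA stretches and the TATA motif TATAAA in sisA, her and dsx, each on either strand.
Sxl late start: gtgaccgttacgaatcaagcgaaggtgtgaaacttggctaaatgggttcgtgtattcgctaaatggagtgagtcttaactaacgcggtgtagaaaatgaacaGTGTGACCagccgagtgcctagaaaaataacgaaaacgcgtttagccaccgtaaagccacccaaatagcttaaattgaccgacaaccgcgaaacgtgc
tra: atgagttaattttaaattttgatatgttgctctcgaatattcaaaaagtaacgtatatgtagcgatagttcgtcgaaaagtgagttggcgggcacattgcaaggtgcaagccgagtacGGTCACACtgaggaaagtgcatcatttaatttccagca
Sxl early start: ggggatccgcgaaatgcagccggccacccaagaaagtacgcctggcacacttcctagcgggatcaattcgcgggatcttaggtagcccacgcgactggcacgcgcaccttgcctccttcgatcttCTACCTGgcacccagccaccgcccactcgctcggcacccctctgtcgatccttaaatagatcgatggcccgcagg
sisA: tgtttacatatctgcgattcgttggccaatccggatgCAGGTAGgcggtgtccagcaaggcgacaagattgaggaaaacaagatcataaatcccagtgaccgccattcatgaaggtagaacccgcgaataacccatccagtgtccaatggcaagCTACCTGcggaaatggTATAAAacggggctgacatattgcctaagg
her: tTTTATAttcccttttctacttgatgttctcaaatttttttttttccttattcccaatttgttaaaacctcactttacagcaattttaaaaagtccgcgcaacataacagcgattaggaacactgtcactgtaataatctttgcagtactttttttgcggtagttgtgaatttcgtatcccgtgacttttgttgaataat
dsx: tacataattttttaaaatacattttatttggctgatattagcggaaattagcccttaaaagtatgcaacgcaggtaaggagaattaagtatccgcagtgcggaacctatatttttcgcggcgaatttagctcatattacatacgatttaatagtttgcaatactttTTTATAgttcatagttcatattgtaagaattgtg

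Of the 10 genes, 6 had a summit of the optimal set within 250 bp of a transcription start site (TSS), against 33.0% of all 13968 protein-coding genes. The optimal set is the list of 5007 lines that passed the authors' irreproducible discovery rate filter. In the relaxed lists, which held 30000 lines each, 7 of 10 genes had a summit that close in the pooled list, against 51.6% of all genes. The same count was 7 of 10 in the list of replicate 1, against 51.5% of all genes, and 6 of 10 in the list of replicate 2, against 50.1%. Since the genes were chosen from these lists, nothing is read from the difference between their counts and the shares of all genes.

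Signal below is column 7 of the lists, the score of the authors' peak caller. Its scale is not given in the sources used here, so signals are compared only within a list, and rank 1 is the strongest line. Every optimal line had the same signal and rank in the pooled list. Depth is unknown, and no error can be given for a single line, so the lists of the 2 replicates are the only measure of spread.

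**Figure D1:**
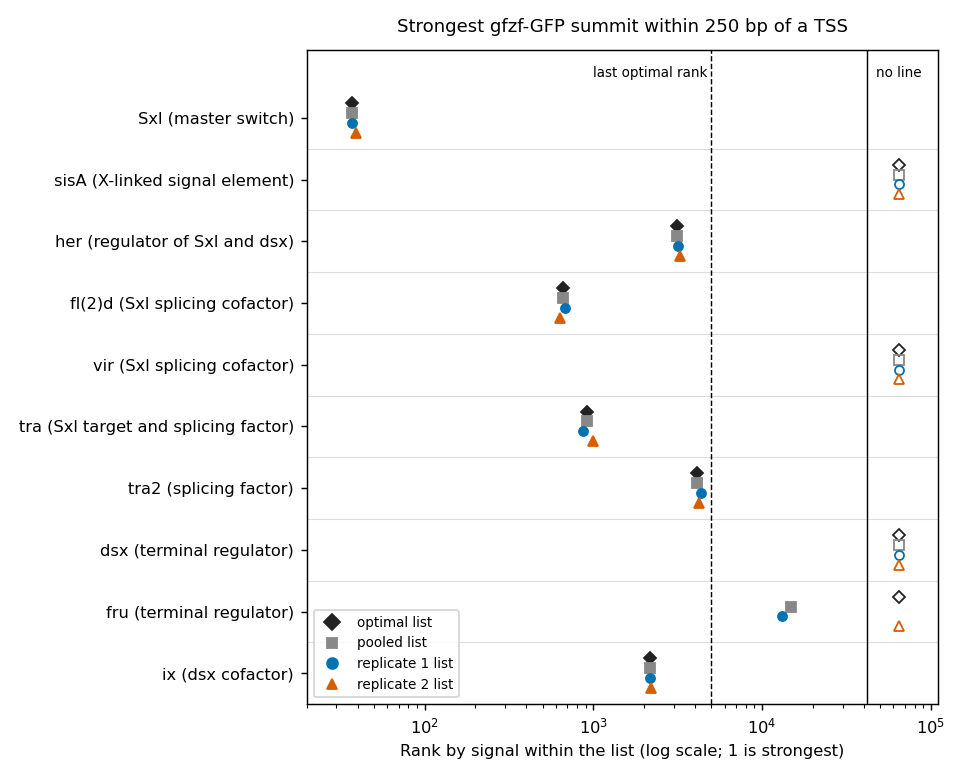
Rank by signal (horizontal log axis, 1 is strongest) of the strongest summit within 250 bp of a TSS of each gene, with 1 symbol per list and open symbols where a list held no such line. Sxl stands at rank 37 to 39 in every list, while sisA, vir and dsx have no line in any list and fru has lines only in the pooled and replicate 1 lists.

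At the top of the cascade, Sxl, the master switch that encodes an RNA-binding splicing regulator, had the strongest promoter summit of the 10 genes. Sxl (FBgn0264270, chromosome X, minus strand) had a signal of 7549 at rank 37 of the optimal set, 4637 at rank 37 of the replicate 1 list and 2947 at rank 39 of the replicate 2 list. These are 48.1%, 49.0% and 47.2% of the highest signal in each list, so the summit held nearly the same place in both replicates. In the optimal set it stood between N, the Notch receptor gene, at rank 36 (7569) and Pli at rank 38 (7537), with CG17746 at rank 35 (7661) and CG18011 at rank 39 (7502) beyond them. Counted over genes, 51 of the 4609 with an optimal promoter summit had a stronger one than Sxl.

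The summit marked the late start of Sxl and not the early one. The annotation gives Sxl 25 transcripts from 4 starts. The most upstream, at position 7098053, begins 18 transcripts and is the late start. The most downstream, at position 7092883, begins 4 transcripts (Sxl-RC, Sxl-RN, Sxl-RO and Sxl-RR) and is the early start, 5170 bp further along the gene. All 4 early transcripts splice from their own first exon to the exon at positions 7087614 to 7087659, and 0 of the 18 late transcripts use that exon as their second. The optimal summit at position 7098157 lay 104 bp upstream of the late start, 389 bp from the start of Sxl-RG, 1091 bp from that of Sxl-RA and Sxl-RE, and 5274 bp from the early start. Its interval, from 7097723 to 7098503, covered both the late start and the start of Sxl-RG. The summit was at the same base in replicate 1 and 99 bp upstream of the late start in replicate 2. With a limit of 100 bp in place of 250 bp, the optimal summit would not have been assigned to Sxl.

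At the early start the optimal set held no line within 250 bp. The pooled list had a weak line with a signal of 18.0 at rank 19994 and a −log10 q of 0.608. Replicate 1 had a line with a signal of 13.6 at rank 17899, and the nearest line of replicate 2 was 1565 bp away. No fold between the starts is given, since these lines lie deep in the relaxed lists and replicate 2 had none. Between these, the start of Sxl-RA and Sxl-RE had a line only in replicate 1, with a signal of 26.8 at rank 8319.

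A further optimal line lay inside Sxl, 9045 bp downstream of the late start, with its summit at position 7089008. Its signal was 101.1 at rank 4655, near the weak end of the optimal set, whose lowest signal was 88.4. It was also listed at rank 5162 in replicate 1 and rank 4637 in replicate 2. The summit fell in an intron of all 25 transcripts. Counted to 250 bp beyond its ends, the gene held 15 lines in the pooled list, 18 in replicate 1 and 14 in replicate 2. The optimal set held 2 in the same span, this line and the one at the late start.

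**Figure D2:**
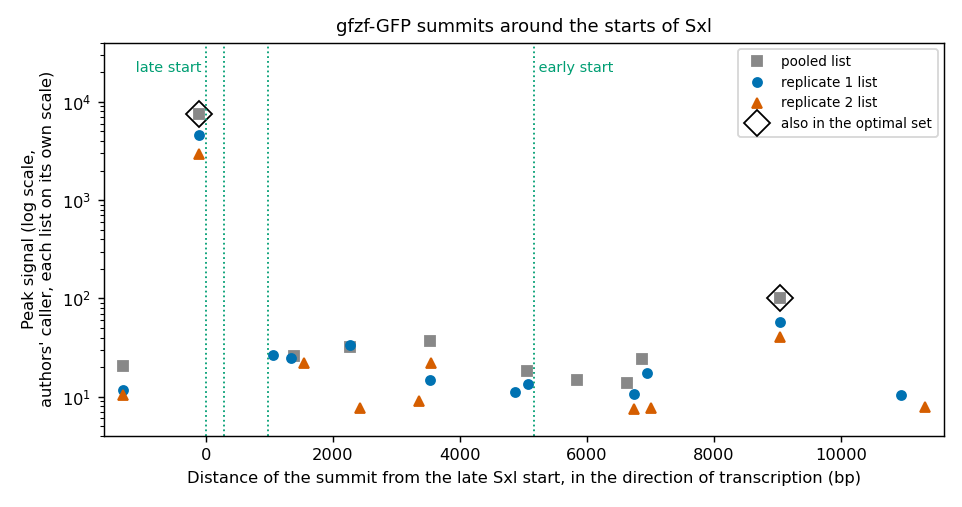
Signal of each line (vertical log axis, each list on its own scale) against the distance of its summit from the late Sxl start in the direction of transcription, with dotted lines at the 4 annotated starts. The lines at the late start, with signals of 7549, 4637 and 2947, stand far above all others shown, and only the line 9045 bp into the gene is ringed as a second member of the optimal set.

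The X-linked signal element had no summit at its start. The gene sisA (FBgn0003411, chromosome X, minus strand), which encodes a bZIP factor that activates the early Sxl promoter, had no line within 250 bp of its TSS at position 11322357 in any list. The nearest line was 1323 bp away in the pooled list (signal 15.2, rank 24606), 1546 bp away in replicate 1 and 962 bp away in replicate 2. The nearest optimal line was 2994 bp upstream. The gene her (FBgn0001185, chromosome 2L, plus strand), a zinc finger protein needed for normal Sxl and dsx function, had a weak optimal summit with a signal of 220 at rank 3108. Its signal was 139 at rank 3168 in replicate 1 and 81.7 at rank 3254 in replicate 2. These summits were 39, 41 and 58 bp upstream of the TSS at position 16677185. The pooled list (32.6, rank 9790) and replicate 1 (32.9, rank 7155) each held a second, weaker line of her that was not in the optimal set.

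Among the cofactors that Sxl protein needs to splice its own transcripts, fl(2)d and vir differed in the lists. Both proteins are subunits of the complex that writes the m6A mark on RNA. The gene fl(2)d (FBgn0000662, chromosome 2R, minus strand) had the second strongest promoter summit of the 10 genes, with a signal of 2599 at rank 658 of the optimal set, 1579 at rank 674 of replicate 1 and 1024 at rank 637 of replicate 2. The summit lay 61 bp upstream of the TSS at position 13824553 in the optimal set and within 1 bp of that in both replicates. The same summit lay at an offset of −244 bp from the TSS of CG13339, so the line cannot be assigned to fl(2)d alone. A second optimal line inside fl(2)d, with a signal of 466 at rank 2262, fell in an intron of all 4 transcripts.

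For vir (FBgn0003977, chromosome 2R, minus strand) no list held a summit within 250 bp of the TSS at position 23366355. The nearest optimal summit was 433 bp upstream, with a signal of 121 at rank 4245, and it lay 78 bp from the TSS of Ice1. Replicate 1 placed it at the same base (65.0, rank 4782). The nearest summit of replicate 2 lay 261 bp upstream of vir (54.1, rank 4034), just outside the limit. Among the 10 genes, the optimal summit closest inside the limit was a second one of ix, described below, at an offset of −217 bp, which replicate 1 placed at −240 bp.

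The genes of the splicing step below Sxl both had optimal summits, of very different strength. The gene tra (FBgn0003741, chromosome 3L, minus strand), whose transcripts Sxl protein splices, had a signal of 2019 at rank 919 of the optimal set, 1301 at rank 873 of replicate 1 and 725 at rank 990 of replicate 2. Its summit lay 53 bp upstream of the TSS at position 16591050 in the optimal set and replicate 1, and 52 bp upstream in replicate 2. The gene tra2 (FBgn0003742, chromosome 2R, minus strand), an RNA-binding partner of tra that both sexes express, had the weakest of the 6 optimal summits, with a signal of 130 at rank 4092. In the replicates its signal was 76.8 at rank 4358 and 49.7 at rank 4211. These summits lay 16, 22 and 24 bp downstream of the upstream one of its 2 start positions, and none lay within 250 bp of the other. A second line near the upstream start, with a signal of 17.7 at rank 20457 of the pooled list, was weak in both replicates too.

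The terminal regulators had no optimal summit. The gene dsx (FBgn0000504, chromosome 3R, minus strand), whose sex-specific transcription factors shape bodily sex, had no line within 250 bp of either of its 2 starts in any list. The nearest pooled line was 736 bp upstream of the second start, with a signal of 24.2 at rank 13837. The nearest line of replicate 2 was 696 bp upstream of that start (16.2, rank 9100). In replicate 1 the nearest was 2160 bp from the first start, and the nearest optimal line was 10439 bp away. The gene fru (FBgn0004652, chromosome 3R, minus strand), known for its role in male courtship, spans 131314 bp and has 15 transcripts from 7 starts. Its most upstream start, which begins 8 transcripts, had no line near it, and the nearest pooled line was at an offset of −27502 bp. At its most downstream start, that of fru-RM, the pooled list had a line with a signal of 22.8 at rank 14872 and replicate 1 had one with a signal of 17.4 at rank 13116. The nearest line of replicate 2 to that start was 701 bp away.

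The cofactor of female dsx protein, ix (FBgn0001276, chromosome 2R, minus strand), a subunit of the Mediator complex, had a pair of optimal summits in 1 interval. The stronger had a signal of 530 at rank 2151 of the optimal set, 338 at rank 2171 of replicate 1 and 202 at rank 2189 of replicate 2, and lay within 10 bp of the TSS at position 11360163 in all of them. The other had a signal of 261 at rank 2861, at an offset of −217 bp, and replicates 1 and 2 listed it with signals of 177 and 84.2. Another optimal summit, 940 bp from the TSS of ix, lay 47 bp from that of CG12384.

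The order of the 6 genes by signal was Sxl, fl(2)d, tra, ix, her and tra2 in the pooled list and in both replicate lists. The signal of Sxl was 2.90-fold that of fl(2)d in the pooled list, 2.94-fold in replicate 1 and 2.88-fold in replicate 2. It was 3.74-fold, 3.56-fold and 4.06-fold that of tra in the same lists, 14.3-fold, 13.7-fold and 14.6-fold that of ix, and 58.2-fold, 60.3-fold and 59.3-fold that of tra2. No neighbours in the order changed places between the lists. Over all start positions of the 10 genes, joined where they lay within 100 bp, 6 of 21 had an optimal summit, 8 had a pooled line, 9 a replicate 1 line and 6 a replicate 2 line. The share over the start positions of all genes was not computed, so nothing is read from these counts.

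**Figure D3:**
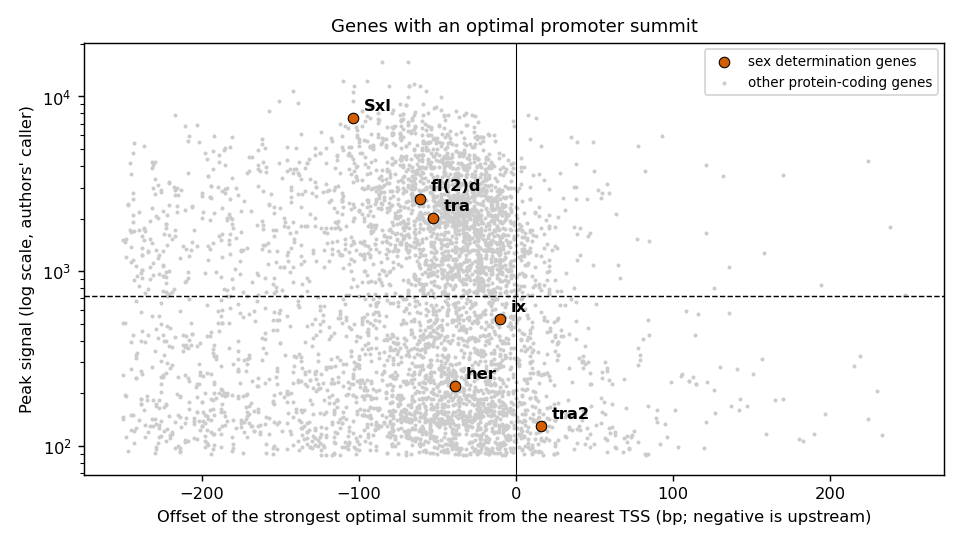
Signal (vertical log axis) against offset of the strongest optimal summit from the nearest TSS (negative is upstream) for the 6 sex determination genes with an optimal summit, in orange, and for all other protein-coding genes that had one, in grey; the dashed line is the median signal of 724. Sxl, fl(2)d and tra lie above the line, and ix, her and tra2 below it.

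The median offset of the summit was −46 bp over the 6 genes, against −48 bp (quartiles −91 and −21) over all 4609 genes with an optimal promoter summit. The median signal of the 6 genes was 1274, against 724 (quartiles 194 and 2057) over the 4609, and 3 of the 6 lay above 724. Since the genes were chosen from signals in these lists, nothing is read from this difference. Of the 4609 genes, 20.8% had a summit farther upstream than that of Sxl. Where a gene with an optimal summit had at least 2 start positions, the summit was nearest the most upstream one in 71.7% of genes (1054 of 1469), as it was at Sxl and tra2.

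The summit at the late Sxl start lay next to a Motif 1 core. Motifs were searched on both strands from −250 to +49 bp of the most upstream TSS. The core GGTCACAC was found at 2 of the 10 genes, Sxl and tra, against 7.69% of all 13968 promoters. At Sxl its reverse complement ran from −98 to −91 bp, and its centre was 9.5 bp from the summit. At tra it ran from −38 to −31 bp, 18.5 bp from the summit. The core stood within 100 bp of 20.4% of all 4188 optimal promoter summits (855), with a median distance of its centre to the summit of 35.5 bp. The Sxl summit had the 14th highest signal among these 855. The corresponding shares were 26.1% for TATA, 16.5% for the E-box, 13.9% for DRE, 1.67% for GAGA and 0.692% for Zelda. The other 4 genes with an optimal summit, fl(2)d among them with a stronger summit than tra, had no exact copy of the core in this window. At ix a TATA match lay 51.5 bp from the summit.

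The other motifs were searched in the same windows. The Zelda motif CAGGTAG, bound by an activator of the early zygotic genome, occurred at 1.64% of all promoters, and of the first starts of the 10 genes sisA alone had it, in 3 copies, 1 of them upstream of the stretch printed above. The early Sxl start also had a copy, from −75 to −69 bp. At dsx, fru and vir there was neither an optimal summit nor an exact Zelda match. The TATA motif TATAAA was at 4 of the 10 first starts (sisA, her, dsx and ix), against 45.8% of all promoters. At 0 of the 10 first starts were the DRE letters TATCGATA (9.36% of all promoters), the E-box CAGCTG (17.6%) and the GAGA letters GAGAGAG (5.86%). At later starts, GAGA letters were found at the start of Sxl-RA and Sxl-RE, at the second start of dsx and at that of fru-RK, and the E-box at the second start of tra2 and that of fru-RJ. The second start of tra2 also had a TATA match. Matches describe the letters in these windows and say nothing about which factors bind.

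**Figure D4:**
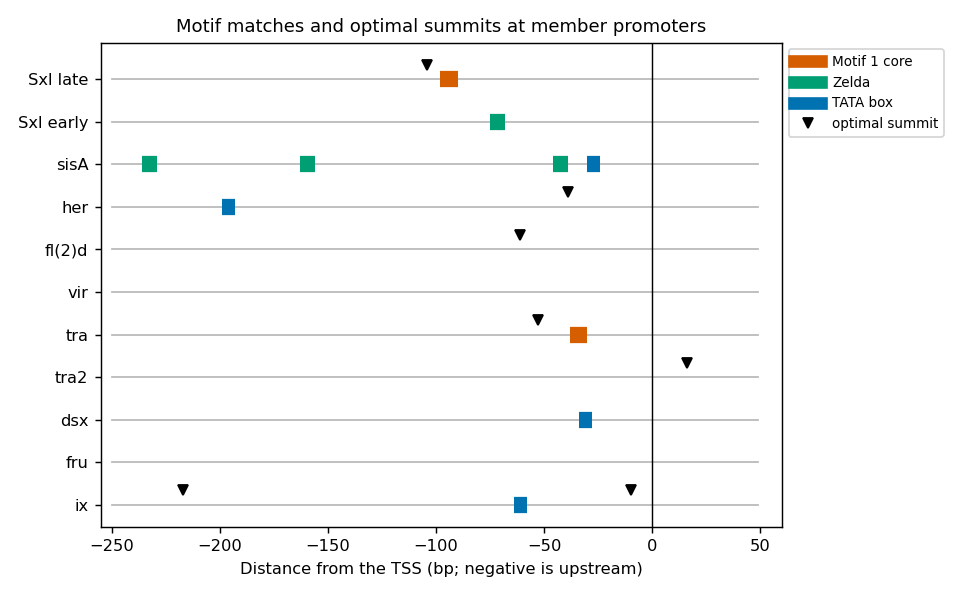
Motif matches (coloured blocks) and optimal summits (black triangles) from 250 bp upstream to 49 bp downstream of the most upstream start of each gene, with the early Sxl start as a row of its own. The Motif 1 core lies beside the summit at the late Sxl start and at tra, and the Zelda motif is at the early Sxl start and at sisA, which have no optimal summit.

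Further genes of the pathway were taken from a list of 32 in 5 roles. An optimal promoter summit was found at 11 of the 32 (34.4%), against 33.0% of all protein-coding genes. A line was found at 18 of the 32 in the pooled list and in each replicate list, against 51.6%, 51.5% and 50.1% of all genes. These shares are near those of all genes, and the counts by role below, each over 10 genes or fewer, are read against the same shares as a description only. At 5 of the 11 the summit also lay within 250 bp of another gene's TSS, which was the nearer one at 4 of them, so those lines cannot be assigned to the listed gene alone. Of the genes that count or modify the X signal, 2 of 7 had an optimal summit. They were gro, a corepressor (236, rank 3008), and da, the bHLH partner of signal element proteins (139, rank 3938). The genes sc, upd1, run, dpn and emc had none.

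Of the genes that act with Sxl protein in splicing or belong to the m6A machinery, 5 of 8 had an optimal summit. Mettl3, the catalytic subunit of the m6A writer, had the highest signal of these (3403, rank 423), followed by pps, whose protein partners that of snf (1821, rank 1032), snf, a spliceosomal protein (524, rank 2160), Hakai, a component of the writer complex (176, rank 3457) and the m6A reader Ythdc1 (137, rank 3971). The genes nito, Flacc and Mettl14 had none. Each of the 8 had a line in the pooled and replicate 1 lists. In replicate 2 only 6 of 8 had a line, and nito and Mettl14 had none. The summit of Mettl3 was 181 bp from its TSS and 149 bp from that of KrT95D, that of pps 41 bp from its own and 28 bp from that of Dip-C, and that of Ythdc1 84 bp from its own and 28 bp from that of CG12010. The snf summit was 108 bp from its own TSS and 151 bp from that of Cdk7. Among the SR-type splicing factors that act on dsx transcripts, x16 (2353, rank 758) and B52 (249, rank 2929) had one.

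Of the genes downstream of the switch, 1 of 10 had an optimal summit. It was msl-2, the dosage compensation gene that Sxl protein represses in females, with a signal of 5874 at rank 107, the highest of the 32. The same summit was 23 bp from the TSS of msl-2 and 22 bp from that of ND-PDSW. The yolk protein genes Yp1, Yp2 and Yp3, and bab1, bab2, dsf, retn, to and fit had none. Of the germline sex genes, 1 of 5 had one, Phf7, a chromatin reader of the male germline (205, rank 3207), and ovo, otu, stil and bam did not.

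**Figure D5:**
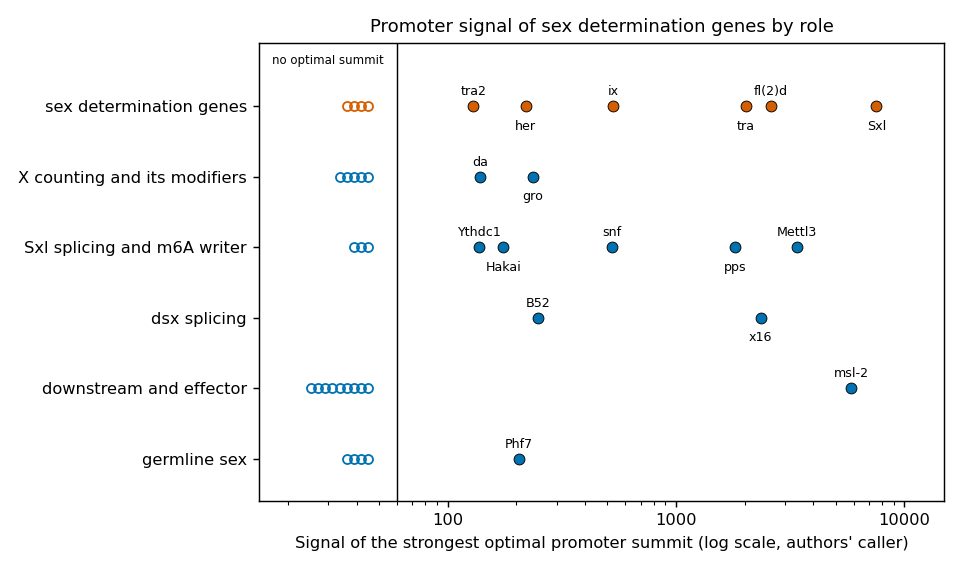
Signal of the strongest optimal promoter summit (horizontal log axis) for the 10 sex determination genes in the top row and the 32 further genes by role below, with open circles left of the line for genes without one. Sxl at 7549 and msl-2 at 5874 have the highest signals shown, and the msl-2 summit is shared with ND-PDSW. An optimal summit is absent at 9 of 10 downstream genes, and 33.0% of all protein-coding genes have one.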

How the data were processed

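Per the labels, ChIP-seq used gfzf-GFP embryos in 2 biological replicates, and peak lists on dm6 were used here for each replicate, for both pooled, and for the optimal set. The deposited signal (column 7) and −log10 q-value (column 9) are the authors' peak scores. The latter took a single value, 4.18, in the optimal set. The aligner and peak caller were not given in the sources used here, nor were filter settings and depth. Replicate lists were the relaxed input of the reproducibility filter and hold many lines below it. Copies of the lists on dm3 were not used.

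A summit (column 2 plus column 10) was assigned to a gene within 250 bp of any TSS in the Ensembl release 115 annotation of dm6, counting from 1. Lines were ranked by signal within a list. Starts within 100 bp of each other were joined. Computations ran in Python 3.11.15 with pandas 2.3.3 and numpy 2.4.6, and summit assignment was tested on simulated data. Leaving out a replicate meant taking the 5007 strongest lines of the other one. The named genes were the 10 members, further genes with an optimal summit with their signals and the rest by name, the nearest neighbours of Sxl in rank, and genes sharing a member's summit. Ice1, CG12384 and genes sharing a further gene's summit were named after their values were seen. Members, gene lists and motifs were chosen with earlier results of these data known. Of 33 listed further genes 32 were analysed here. The list as first written held more genes, which are not reported here.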

Additional observations from a re-analysis of the deposited data

How the results depend on the processing

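The count of 6 genes with an optimal promoter summit was 5 within 100 bp, where Sxl was lost because its summit is 104 bp away. It was 7 within 500 or 1000 bp or by overlap of the interval, where vir was gained. It was 4 in the strongest 2503 optimal lines, without her and tra2, and 7 in the pooled list, with fru. The share of all protein-coding genes moved too. It was 26.6% within 100 bp, 36.9% within 500 bp, 39.3% within 1000 bp and 36.7% by overlap. In the strongest 2503 lines it was 20.2%, and in the pooled list 51.6%. With only protein-coding transcripts the same 6 genes were called. Leaving out either replicate gave 6 members and 11 further pathway genes, and 4502 to 4569 genes in all. The further genes numbered 5 in the strongest 2503 lines and 18 in the pooled list, and all protein-coding genes 2821 and 7204. With 1 replicate left out, the ranks were those in the list of the other replicate, already given above. They ran from 37 to 39 for Sxl, 637 to 674 for fl(2)d and 873 to 990 for tra. For ix they ran from 2171 to 2189, for her from 3168 to 3254 and for tra2 from 4211 to 4358. In a window from 100 bp before to 100 bp after the TSS, the shares of promoters were 6.74% for the Motif 1 core, 7.83% for DRE, 1.02% for Zelda, 13.8% for the E-box, 29.2% for TATA and 3.68% for GAGA. No paired analysis was possible because the samples form 1 group. Depth is unknown and 2 replicates give no test of a single line.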
